A study of Ericerus pela with 8 samples.

Results

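Second-instar female and male larvae of the Chinese white wax scale, Ericerus pela, were compared by RNA sequencing, with 1 library of each sex. They were chosen by the sex and stage in the sample titles and are 2 of the 8 libraries in the series. The other 6 hold first-instar larvae of each sex, early-stage, middle-stage and later-stage adult females, and adult males. All are total RNA from washed whole insects, and the labels give neither age, host plant, number of insects nor place of collection, so a difference between the sexes cannot be told apart from a difference between collections. No group has a second library, so no test of a difference was possible and no p-value is given.

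Scale insects feed on plant sap, and in Ericerus pela the commercial white wax is secreted by males during the second instar. The wax consists mainly of esters that join a very-long-chain fatty alcohol to a very-long-chain fatty acid. In insects such esters are built from acetyl-CoA by fatty acid synthase, elongases, CoA ligases, fatty acyl-CoA reductases and an acyltransferase, and ABC transporters are among the proteins that carry lipids out of cells.

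In units of 1000 uniquely assigned reads, the depth was 1917.6 for the female library and 2182.1 for the male library. The other 6 libraries ranged from 1460.7 for middle-stage adult females to 2303.2 for male first-instar larvae. Read counts set side by side below are not scaled to depth. Levels are given as CPM, the reads of a unigene scaled to a common library total, on which 1 read is 0.521 CPM in the female and 0.458 CPM in the male library. A count of 0 allows a level of up to 1.56 CPM in the female library and 1.37 CPM in the male library, taken at 3 reads. Reads were found in either library for 124578 of the 147509 unigenes of the series, which are assembled transcript fragments, and 34182 had at least 20 reads in either library and are called measured. A gene can be broken into several unigenes, and similar family members can take each other's reads, so members of a list are not independent. A measured unigene was counted as higher in a library when the log2 ratio of levels, with 1 CPM added to each, was at least 2, which is 4-fold. Folds are ratios of CPM with nothing added. Their exact 95% intervals cover counting error only, and against 0 reads a fold is a lower bound taken at 3 reads.

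By this rule 1253 measured unigenes (3.67%) were higher in females and 902 (2.64%) in males. Among those with an arthropod match the shares were 2.65% and 1.38%. The counts of each list below are to be read beside these shares. A few members of a long list lie near them and are no result about the list. Most of the transcriptome lay close together: 80.1% of measured unigenes were within 2-fold, and the median log2 ratio, female over male, was -0.05. The female-higher unigenes took 4.41% of the female library's reads and 0.445% of the male library's. The male-higher unigenes took 3.76% of the male library's reads and 0.348% of the female library's. A protein match was given for 39.5% of the female-higher and 28.4% of the male-higher unigenes, against 53.3% of those in neither class, so much of the difference lies in unigenes with no name. In whole insects, fewer cells of a type and less RNA per cell cannot be told apart.

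**Figure D1:**
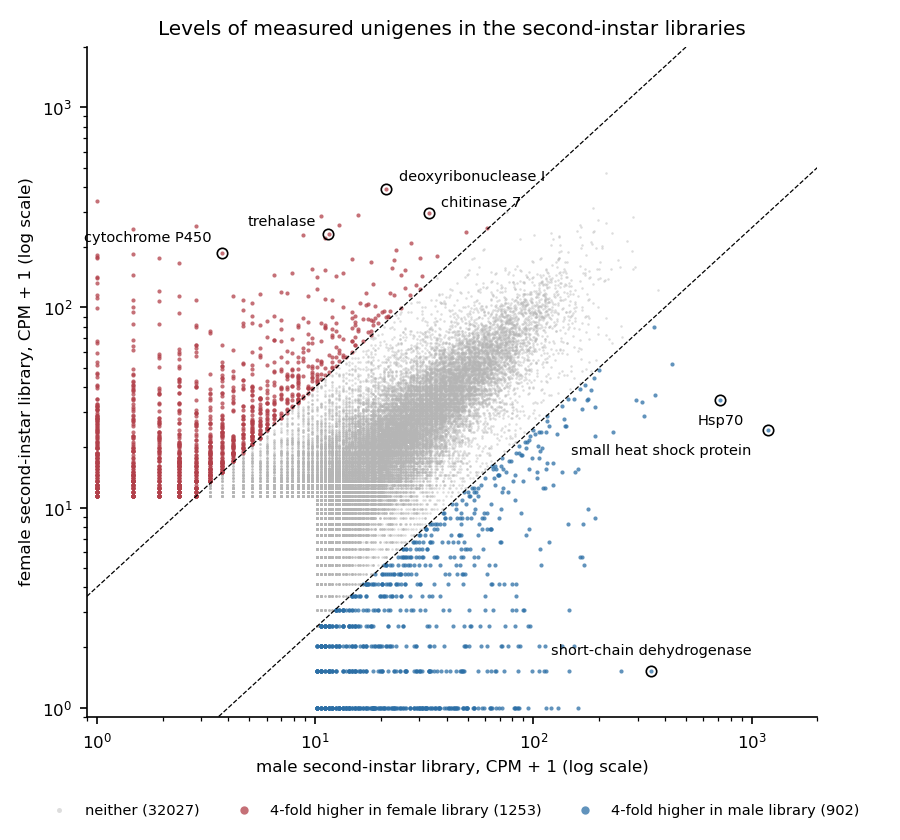
Level of each measured unigene in the male (x axis) and female (y axis) second-instar library, in CPM with 1 added, on log scales. Each point is 1 unigene, dashed lines mark 4-fold, and circled points are named examples: the small heat shock protein and Hsp70 stand apart at the far right, at 1183 and 717 CPM in the male library.

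The lists of acetyl-CoA, malonyl-CoA and NADPH supply had medians towards the male library, with few members past the rule. Malic enzyme, which makes pyruvate and NADPH from malate, was read 32 times in females and 154 times in males (Unigene74814_FOB, 4.23-fold higher in males, 2.88 to 6.40). Transaldolase was read 51 and 299 times (Unigene79415_FOB, 5.15-fold, 3.82 to 7.08). It belongs to the pentose phosphate pathway, a source of NADPH, but makes no NADPH itself. Of the 11 measured members of the list of acetyl-CoA and malonyl-CoA supply, 1, this same malic enzyme, was higher in males and 0 in females. The median log2 ratio was -1.10, with 4 members above 0 and 7 below. Summed over all members of this list, the level was 276 CPM in second-instar females and 540 CPM in second-instar males. It was highest in male adults, at 992 CPM. All 7 measured members of the NADPH supply list lay below 0, with a median of -1.35, and 1, the transaldolase, passed the 4-fold rule. Malic enzyme had 29 to 62 reads in each of the other 6 libraries, and transaldolase 36 to 104, so the male second-instar library was the highest of the 8 in reads for both.

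Fatty acid synthase, the enzyme that builds the fatty acyl chain, was split between the sexes. Of 75 unigenes with such a match 46 were measured: 6 were higher in males, 3 in females and 37 in neither, with a median log2 ratio of -0.33. The most read male-higher member had 60 female and 294 male reads (Unigene47547_FOB, 4.31-fold, 3.25 to 5.78). The next had 30 and 250 reads (Unigene124509_FOB, 7.32-fold, 5 to 11.1). On the female side a fatty acid synthase unigene had 52 reads and none in the male library (Unigene35408_FOB, at least 19.7-fold). That unigene was read 123 times in first-instar females, 50 times in first-instar males and 172 times in early-stage adult females, and 0 times in the later female adults and male adults. Another, whose best match is a mammalian fatty acid synthase structure, was read 25 and 0 times at the second instar, but 5 times in female and 29 times in male first-instar larvae (Unigene128623_FOB). The third matched a protein from outside the arthropods (Unigene141509_FOB, 20 against 0 reads).

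Enzymes that lengthen the chain leaned the other way. Of 11 measured elongases and chain-extension enzymes 3 were higher in females and 0 in males, with a median log2 ratio of 1.23. A putative elongase had 204 female and 2 male reads (Unigene152548_FOB, 116-fold, 31.7 to 965), and its first-instar counts were 65 in females and 0 in males. A further elongase had 168 and 39 reads (Unigene100222_FOB, 4.90-fold, 3.44 to 7.14), and its highest count, 516, was in first-instar males. Summed over all members of the list, the level was 478 CPM in females and 159 CPM in males.

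Desaturases, which place a double bond in the acyl chain, differed by unigene: 2 of 13 measured were higher in females and 3 in males, with a median of -0.19. A Z9-desaturase was read 115 times in females and 1 time in males (Unigene154536_FOB, 131-fold, 23 to 5213), and 229 times in middle-stage adult females. A second unigene with the same match name was higher in males, at 46 against 8 reads (Unigene155992_FOB, 5.05-fold, 2.36 to 12.4), and was most read in male adults, at 254. Delta-9 desaturase 1 was also higher in males, at 58 against 7 reads (Unigene84507_FOB, 7.28-fold, 3.32 to 18.9), with 155 reads in first-instar males and 48 in first-instar females.

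Chain activation and reduction each had a strongly male member. CoA ligases attach coenzyme A to fatty acids, and firefly luciferase belongs to the same superfamily. Of 51 measured unigenes of this kind 5 were higher in males and 0 in females, while the median was -0.10, so most members were level. The firefly luciferase-like unigene had 204 male reads and no female reads (Unigene155797_FOB, at least 59.8-fold). An AMP-dependent CoA ligase had 145 and 0 (Unigene123893_FOB, at least 42.5-fold). Both were unread in first-instar larvae of either sex and in early-stage adult females, and were read 135 and 46 times in middle-stage and 105 and 9 times in later-stage adult females.

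Fatty acyl-CoA reductases make fatty alcohols, the alcohol component of a wax ester. Among 8 measured, fatty acyl-CoA reductase 1 was read 145 times in males and 1 time in females (Unigene105450_FOB, 127-fold, 22.5 to 5067). In the other 6 libraries it had between 0 and 16 reads, the 16 in first-instar males, so no other library approached the male second instar. By contrast 2 members were higher in females, a fatty-acyl CoA reductase I at 70 against 11 reads (Unigene88321_FOB, 7.24-fold, 3.81 to 15.2) and a male sterility domain protein, a domain of the same enzyme family, at 42 against 8 (Unigene35140_FOB, 5.97-fold, 2.77 to 14.7). The summed level of the whole list was 173 CPM in females and 165 CPM in males.

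Esterification and export showed few differences. Of 40 measured acyltransferases of glycerolipids and wax esters 1 was higher in females, a diacylglycerol acyltransferase that makes triacylglycerol, at 20 against 0 reads (Unigene29545_FOB, at least 7.59-fold), and 0 in males. Of 88 measured ABC transporters 5 were higher in females and 1 in males, with a median of 0.28. Over all measured unigenes the shares were 3.67% and 2.64%. The male-higher member was an ABC transporter G family member 20, at 224 against 25 reads (Unigene72641_FOB, 7.87-fold, 5.20 to 12.4), and it had 15 to 59 reads in the other 6 libraries. A different unigene with that match name was higher in females, at 47 against 10 reads (Unigene120905_FOB, 5.35-fold, 2.67 to 11.9). The most read female-higher transporter had 168 and 30 reads (Unigene140815_FOB, 6.37-fold, 4.30 to 9.74). Lipid carriers, which hold lipophorin and related proteins of the blood, had 0 of 17 measured in either direction.

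**Figure D2:**
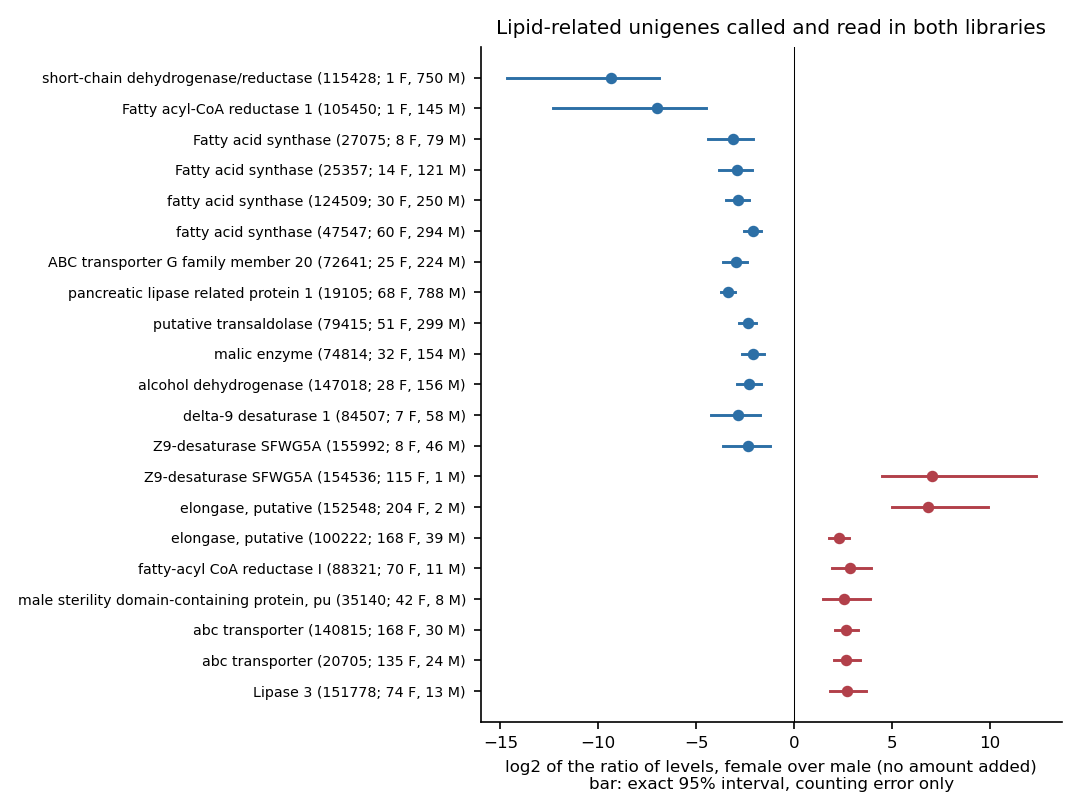
Log2 of the ratio of levels, female over male, for 21 lipid-related unigenes past the 4-fold rule and read in both libraries, with exact 95% intervals for counting error, and the female (F) and male (M) reads after each name. Blue points are higher in males and red points in females. Intervals are widest for the short-chain dehydrogenase and fatty acyl-CoA reductase 1, each with 1 female read.

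Among the lists, the carboxylesterases, enzymes that split ester bonds, held the most male-higher members. Of 60 measured esterases other than juvenile hormone esterases 23 were higher in males and 2 in females, with a median log2 ratio of -1.04. Alpha-esterase 41 had 260 male reads and no female reads (Unigene103830_FOB, at least 76.2-fold). A carboxylesterase of clade E had 229 and 2 (Unigene129524_FOB, 101-fold, 27.5 to 836), and a feruloyl esterase-like protein 212 and 1 (Unigene143868_FOB, 186-fold, 33.1 to 7393). Esterase FE4, 1 of the 2 female-higher members, had 102 female and 21 male reads (Unigene80832_FOB, 5.53-fold, 3.43 to 9.31). Unigenes matched to juvenile hormone esterase, which breaks down the hormone that holds insects in the larval state, showed the same split, with 13 of 36 measured higher in males, 0 in females and a median of -1.01. The most read of them had 183 male and 2 female reads (Unigene139627_FOB, 80.4-fold, 21.9 to 669). These names rest on sequence matches, and carboxylesterases of insects are a large family in which substrate cannot be read from the name.

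The second-instar levels of the male-higher members chose them, so their high male level there is no result. The other 6 libraries, which the comparison did not use, are given as a description. All 902 male-higher unigenes had medians of 6.85 CPM in middle-stage and 3.75 CPM in later-stage adult females and 1.09 to 2.17 CPM in the other 4, and the esterases had the same order. The median level of the 23 esterases was 22 CPM in second-instar males, 19.9 CPM in middle-stage and 4.29 CPM in later-stage adult females, and 0 CPM in both first-instar libraries, early-stage adult females and male adults. For the 13 juvenile hormone esterase matches the medians were 26.1, 19.2 and 5.36 CPM in the same 3 libraries, and at most 0.543 CPM elsewhere. However, 3 of the 13 were read 269, 117 and 103 times in male adults (Unigene154045_FOB, Unigene139566_FOB and Unigene111649_FOB), which is 146, 63.6 and 56 CPM. Of 56 measured lysosomal and secreted hydrolases, a list made after values were seen, 2 were higher in females and 4 in males. Those 4 followed with 41.5, 34.9 and 9.39 CPM, and the 5 male-higher UDP-glycosyltransferases with 59.1, 28.1 and 4.83 CPM.

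The short-chain dehydrogenase/reductase with the highest male ratio of the named unigenes had 750 male and 1 female reads (Unigene115428_FOB, 659-fold, 118 to 26067). Enzymes of this superfamily oxidise or reduce alcohols, steroids and other substrates. It was read 243 times in middle-stage and 48 times in later-stage adult females, and at most 2 times in the other 4 libraries. A peroxidase (Unigene107611_FOB) had 182 male and 0 female second-instar reads and 66 and 18 in the same adult female libraries. A peroxidasin-like protein (Unigene110296_FOB, 177 and 0) had 62 and 12. An endothelial lipase (Unigene128886_FOB, 139 and 0) had 55 and 25, and a sugar transporter (Unigene155611_FOB, 120 and 0) had 85 and 49. Glucose dehydrogenase (Unigene152876_FOB, 88 and 1) and acid phosphatase-1 (Unigene147398_FOB, 203 and 3) were read 103 and 198 times in middle-stage adult females. Scaled to depth, glucose dehydrogenase was at 70.5 CPM in middle-stage adult females and 40.3 CPM in second-instar males. The male second-instar level chose all these members, so it is no result. In the other libraries they were high in middle-stage adult females, and low or unread in the first-instar libraries.

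Lipases, which release fatty acids from glycerolipids, had 2 of 19 measured members higher in each sex. The most read was a pancreatic lipase related protein with 788 male and 68 female reads (Unigene19105_FOB, 10.2-fold, 7.94 to 13.2), and it was read 65 to 229 times in every other library. Lipase 3 was higher in females at 74 against 13 reads (Unigene151778_FOB, 6.48-fold, 3.57 to 12.7). Among 46 short-chain and alcohol dehydrogenases 2 were higher in males and 1 in females, and among 21 haem peroxidases 2 in males and 1 in females. Glucose dehydrogenases, a list made after values were seen, had 1 of 14 higher in each sex. Fatty acid oxidation and peroxisome proteins had 0 of 63 in either direction, with a median of -0.12.

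**Figure D3:**
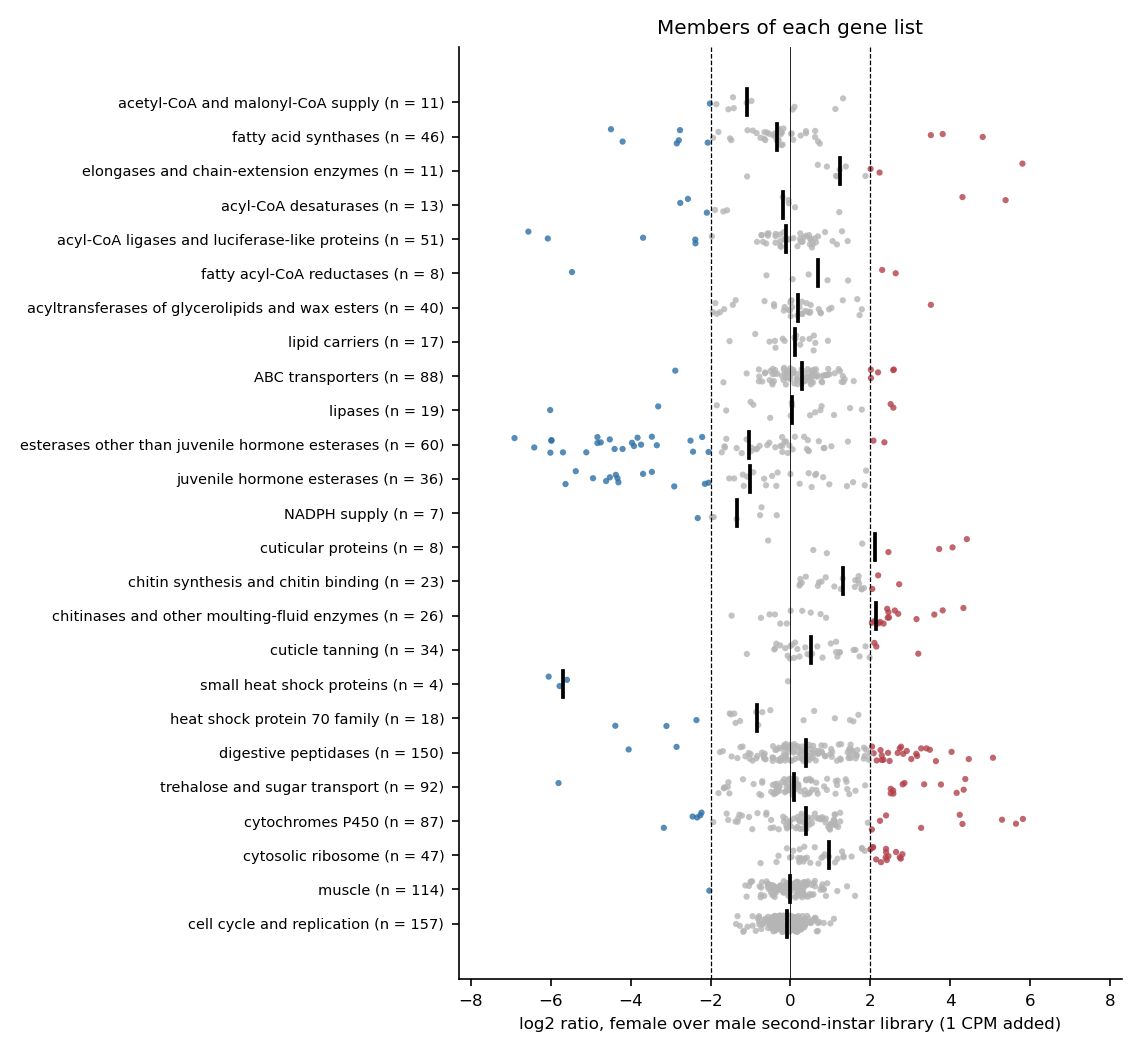
Log2 ratio, female over male (1 CPM added), of every measured member of 25 gene lists, with n measured after each name. Points are unigenes (red, 4-fold higher in females; blue, in males; grey, neither), black bars are list medians and dashed lines mark 4-fold. Chitinases and cuticular proteins have medians above 2, small heat shock proteins -5.69, and muscle and cell cycle members cluster at 0.

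Cuticle and moulting genes lay towards the female library. Insects shed the cuticle with chitinases and peptidases of the moulting fluid and lay down new chitin and cuticular proteins, under the control of ecdysteroids. Of 26 measured chitinases and other moulting-fluid enzymes 15 were higher in females and 0 in males, with a median log2 ratio of 2.15 against -0.05 over all measured unigenes. Chitinase 7 was read 563 times in females and 70 times in males (Unigene157267_FOB, 9.15-fold, 7.13 to 11.9). Another chitinase had 62 and 3 reads (Unigene156265_FOB), and a brain chitinase 112 and 26 (Unigene149758_FOB, 4.90-fold, 3.18 to 7.83).

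Cuticular proteins had 4 of 8 measured members higher in females and 0 in males, with a median of 2.12. Cuticular protein 70 was read 39 times in females and not in males (Unigene147188_FOB, at least 14.8-fold), with 238 and 104 reads in female and male first-instar larvae. Pupal cuticle protein Edg-78E had 30 and 0 reads (Unigene54197_FOB, at least 11.4-fold), and Cuticle protein 8 had 35 and 1 (Unigene145358_FOB, 39.8-fold, 6.69 to 1618). Only 8 of 26 matched cuticular proteins passed the read minimum, so the list is thin.

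Chitin synthesis and binding was uniform in direction: all 23 measured members lay above 0, 3 passed the rule, and the median was 1.31. Chitin deacetylase 5, which modifies newly made chitin, had 115 female and 18 male reads (Unigene86134_FOB, 7.27-fold, 4.40 to 12.7). Chitin synthase 1, the enzyme that makes cuticular chitin, had 46 and 11 (Unigene148640_FOB, 4.76-fold, 2.43 to 10.2). Tanning enzymes, which harden and darken cuticle, had 3 of 34 higher in females and 0 in males, among them laccase 2 with 44 and 10 reads (Unigene154803_FOB, 5.01-fold, 2.48 to 11.2). The 5 measured apical matrix and zona pellucida proteins lay between 1.11 and 1.51, with none past 4-fold, and the most read was dumpy at 225 and 99 reads (Unigene148278_FOB, 2.59-fold, 2.03 to 3.31). An Osiris protein, of a family that in Drosophila is expressed in cuticle-forming tissues, had 122 and 4 reads (Unigene156895_FOB, 34.7-fold, 13.2 to 129).

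Among ecdysteroid-related unigenes 3 were higher in females and 0 in males. Cytochrome P450 307a1, which acts early in ecdysteroid synthesis, had 52 female reads and none in males (Unigene36940_FOB, at least 19.7-fold). HR3, an ecdysone-induced nuclear receptor, had 75 and 7 (Unigene149930_FOB, 12.2-fold, 5.64 to 31.4). A match to hormone receptor in 46-like protein, another name of HR3, had 47 and 6 (Unigene150455_FOB, 8.91-fold, 3.80 to 25.5). These 2 unigenes, which may be parts of 1 gene, are the higher members of 15 measured in the ecdysone response list. Of the 15, 12 lay above 0 and 3 below. The median was 0.24, and -1.02 among members with at least 100 reads. A Patched-related protein was read 180 times in females and 1 time in males (Unigene35956_FOB, 205-fold, 36.3 to 8135) and was the single higher member of 11 in the hedgehog and Patched list.

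The second-instar levels of these members chose them, so their low male level there is no result, and the other 6 libraries are given as a description. The 15 female-higher chitinases and moulting-fluid enzymes had a median of 33.4 CPM in second-instar females, 29.5 and 33.0 CPM in female and male first-instar larvae and 46.3 CPM in early-stage adult females. The medians were 3.75 CPM in later-stage adult females, 5.98 CPM in male adults and 8.90 CPM in middle-stage adult females. All 1253 female-higher unigenes had a like order, with medians of 19.5 and 12.2 CPM in first-instar females and males and 26.2 CPM in early-stage adult females, against 4.79, 1.07 and 1.63 CPM in middle-stage and later-stage adult females and male adults. Tanning differed: its 3 female-higher members had a median of 181 CPM in male adults, and the Osiris unigene had 145 CPM there. The more read HR3 unigene had 170 and 158 reads at the first instar and 200 in early-stage adult females, against 0 and 5 in the older females. The Patched-related unigene had 423 and 274 reads at the first instar and 396 in early-stage adult females, against 1 to 4 in the other 3 adult libraries. At the first instar 1 of 26 measured chitinases was higher in females and 0 in males, and the list's median log2 ratio was -0.15.

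**Figure D4:**
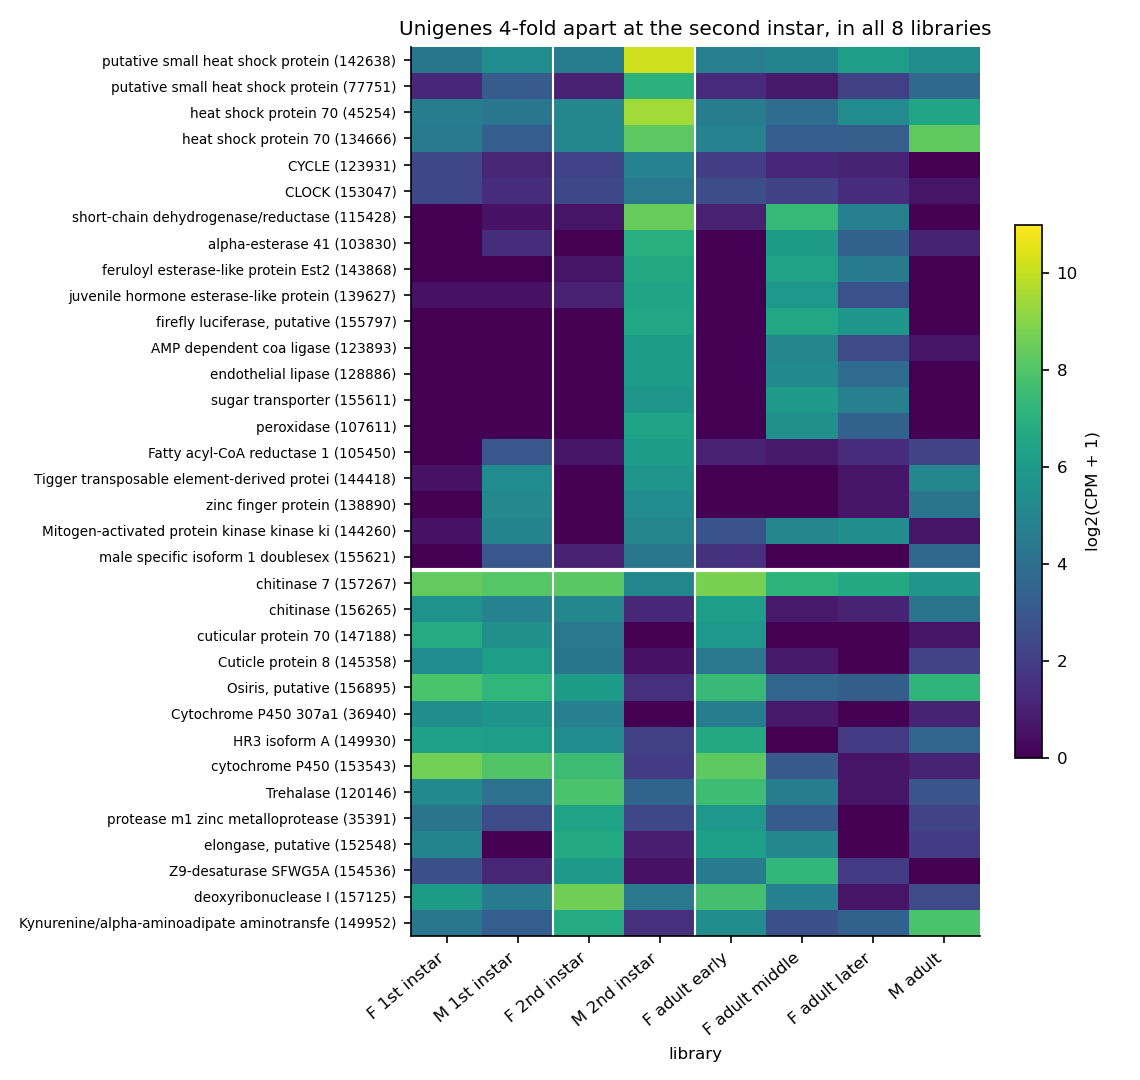
Level, as log2 of CPM with 1 added, of 34 unigenes past the 4-fold rule at the second instar (rows, chosen after their values were seen) in all 8 libraries (columns; F female, M male). Rows above the white line are higher in second-instar males and rows below in second-instar females. Esterase, ligase and peroxidase rows are bright in second-instar males and middle-stage adult females, and moulting rows are dark in second-instar males and in the older adult females.

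Further lists had members higher in females. Those of angiotensin-converting enzymes, thrombospondin-domain proteins and serine proteases other than trypsins were made after values were seen, so their counts are a description only. Of 14 measured angiotensin-converting enzymes, peptidases that trim small peptides, 5 were higher in females and 0 in males, and all 14 lay above 0, with a median of 1.73. Thrombospondin-domain proteins had 4 of 12 higher in females, all 12 above 0, with a median of 1.17, for example 199 and 33 reads (Unigene151577_FOB, 6.86-fold, 4.73 to 10.2). Serine proteases other than trypsins had 12 of 49 higher in females and 1 in males, but the median was 0.22, with 28 above 0 and 21 below. A CLIP-domain serine protease had 78 and 4 reads (Unigene143984_FOB, 22.2-fold, 8.33 to 83.5). Serpins and protease inhibitors had 5 of 17 higher in females and 0 in males, the most read at 343 and 77 reads (Unigene117056_FOB, 5.07-fold, 3.95 to 6.58). Their median was level at 0.04, and was -0.08 with arthropod matches only and -0.21 among members with at least 100 reads.

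Trehalases and a sucrase formed a further female-higher group. Trehalase splits trehalose, the main sugar of insect blood, and sucrase splits the sucrose of plant sap. Of 92 measured unigenes of trehalose and sugar transport 11 were higher in females, 10 of them trehalases and the other a sucrase, and 1 in males, while the median was 0.10. The most read trehalase had 445 female and 23 male reads (Unigene120146_FOB, 22-fold, 14.5 to 35.1), with 81 and 39 at the first instar and 378 in early-stage adult females. Sucrase had 158 and 8 reads (Unigene156059_FOB, 22.5-fold, 11.1 to 53.0), and its highest counts, 516 and 312, were in middle-stage and later-stage adult females.

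Digestive peptidases had 24 of 150 measured members higher in females and 2 in males, with a median of 0.39. Aminopeptidase N, a gut peptidase that removes terminal amino acids, had 132 and 15 reads (Unigene141323_FOB, 10-fold, 5.86 to 18.4) and, in another unigene, 130 and 12 (Unigene137263_FOB, 12.3-fold, 6.82 to 24.5). An M1 zinc metalloprotease, of the same family, had 246 and 61 reads (Unigene156938_FOB, 4.59-fold, 3.45 to 6.18). Deoxyribonuclease I, which digests DNA, was among the most read named unigenes of the female library, at 748 reads against 44 (Unigene157125_FOB, 19.3-fold, 14.3 to 26.9). The 24 female-higher peptidases had medians of 47.2 CPM in second-instar females and 35.2 CPM in early-stage adult females, and 4.12 CPM in second-instar males.

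Amino acid and purine breakdown had 6 of 39 measured members higher in females and 0 in males. Kynurenine aminotransferase of tryptophan breakdown had 206 and 4 reads (Unigene149952_FOB, 58.6-fold, 22.5 to 217), and its highest count, 435, was in male adults. Uricase and allantoinase, both enzymes of uric acid breakdown, had 43 and 5 reads (Unigene36961_FOB, 9.79-fold, 3.88 to 31.7) and 45 and 0 reads (Unigene126767_FOB, at least 17.1-fold). Proteins of the CRAL/TRIO family, which carry hydrophobic ligands such as vitamin E, had 7 of 27 higher in females and 0 in males, the most read at 271 and 20 reads (Unigene128523_FOB, 15.4-fold, 9.79 to 25.6). The CRAL/TRIO list was made after values were seen.

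Cytochromes P450, a family of oxidases of hormones, lipids and plant toxins, were divided, with 9 of 87 measured higher in females and 5 in males and a median of 0.38. The most read female-higher member had 358 and 6 reads (Unigene153543_FOB, 67.9-fold, 30.9 to 186), with 878 and 597 at the first instar. The male-higher members included 302 against 47 reads (Unigene135553_FOB, 5.65-fold, 4.14 to 7.85) and a CYP4G48 match at 56 against 9 (Unigene153236_FOB, 5.47-fold, 2.68 to 12.6). In Drosophila, CYP4G enzymes complete the synthesis of cuticular hydrocarbons. UDP-glycosyltransferases had 3 of 42 higher in females and 5 in males.

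Among chaperones of the stress response, small heat shock proteins bind unfolding proteins, and 3 of 4 measured were higher in males. The most read named unigene of the male library was one of these, at 2581 reads against 45 (Unigene142638_FOB, 50.4-fold, 37.6 to 69.3), with 41 to 131 reads in the other 6 libraries. The other 2 had 294 and 2 reads (Unigene77751_FOB, 129-fold, 35.4 to 1072) and 243 and 2 (Unigene86687_FOB). Summed over the list, the level was 61.0 CPM in females and 1468 CPM in males.

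Heat shock protein 70, the main inducible chaperone, had 3 of 18 measured members higher in males and 0 in females. The summed levels were 765 CPM in females and 2159 CPM in males. At the first instar 3 of 14 measured members were higher in females and 0 in males, with a median of 0.47. These were different members: no named unigene of the list passed the rule in opposite directions at the first and second instar. At the second instar the list divided by setting. The median was -0.83, but 0.60 with every unigene read at least 1 time and 0.59 among unigenes of at least 500 bases, and the 5 members matched outside the arthropods had a median of 1.49. Its most read unigene had 1565 male and 64 female reads (Unigene45254_FOB, 21.5-fold, 16.7 to 28), and 21 to 162 in the other libraries. A second had 643 and 64 (Unigene134666_FOB, 8.83-fold, 6.82 to 11.6), with 586 in male adults. Other chaperones were near level. Of 46 measured members of the heat shock protein 90, 60, 10 and DnaJ list 1 was higher in males, and of 80 proteins of folding and secretion 1 was higher in females.

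Regulators of sex and germ line were few. Unigenes matched to the male isoform of doublesex, a regulator of sexual differentiation in insects, and to doublesex-Mab related 99B were the 2 male-higher members of 4 measured. They had 42 and 2 male and female reads (Unigene155621_FOB, 18.5-fold, 4.80 to 157) and 34 and 2 (Unigene36941_FOB, 14.9-fold, 3.83 to 128). Doublesex was also read 16 times in first-instar and 22 times in adult males, and 0 to 4 times in the other female libraries. Of 25 measured germ line and yolk unigenes 2 were higher in males: PIWI, which silences transposons in germ cells, at 27 and 2 reads (Unigene150642_FOB, 11.9-fold, 2.98 to 103) and argonaute 3 of the same pathway at 66 and 11 (Unigene156567_FOB, 5.27-fold, 2.76 to 11.1). Both were most read in later-stage adult females, at 71 and 194.

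Some male-higher unigenes were male-higher at the first instar as well. At that stage 1012 of 36284 measured unigenes (2.79%) were higher in females and 278 (0.766%) in males, and the 2 comparisons share no library. Of the 902 male-higher unigenes 64 were also male-higher at the first instar, which is 7.1% of the second-instar and 23% of the first-instar set. But 245 of the 902 were measured at the first instar, and of those the share was 26.1%. Of the 1253 female-higher unigenes 119 were also female-higher, which is 9.5% and 11.8% of the 2 sets, and 11.9% of the 996 measured at both instars. Of 45 measured members of the EGF receptor, MAP kinase and Hippo list 4 were higher in males and 0 in females. LATS1, a kinase of the Hippo growth pathway, had 82 and 4 male and female reads at the second instar and 175 and 4 at the first (Unigene32112_FOB, 18-fold, 6.77 to 67.7 at the second). Mitogen-activated protein kinase kinase kinase 15 had 67 and 0 reads at the second instar and 68 and 1 at the first (Unigene144260_FOB).

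A Tigger transposon-derived protein (Unigene144418_FOB, 113 and 0 reads), a transposase (Unigene135148_FOB, 105 and 0) and 3 zinc finger proteins showed the same at both instars. The first pair were also read in male adults, at 60 and 27 reads, and at most 1 time in any female library. A zinc finger protein had 85 and 0 second-instar and 81 and 0 first-instar reads (Unigene138890_FOB). All 5 male-higher members of the zinc finger list at the second instar were among the 60 matched best outside the arthropods, where 1 was female-higher. Of 146 with an arthropod match 0 were male-higher and 3 female-higher. The putative elongase and 3 unigenes matched to p270 were female-higher at both instars. The p270 unigenes had 488 and 4 (Unigene157219_FOB), 350 and 0 (Unigene155339_FOB) and 253 and 0 reads (Unigene28497_FOB), among the largest female ratios of any named unigene.

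**Figure D5:**
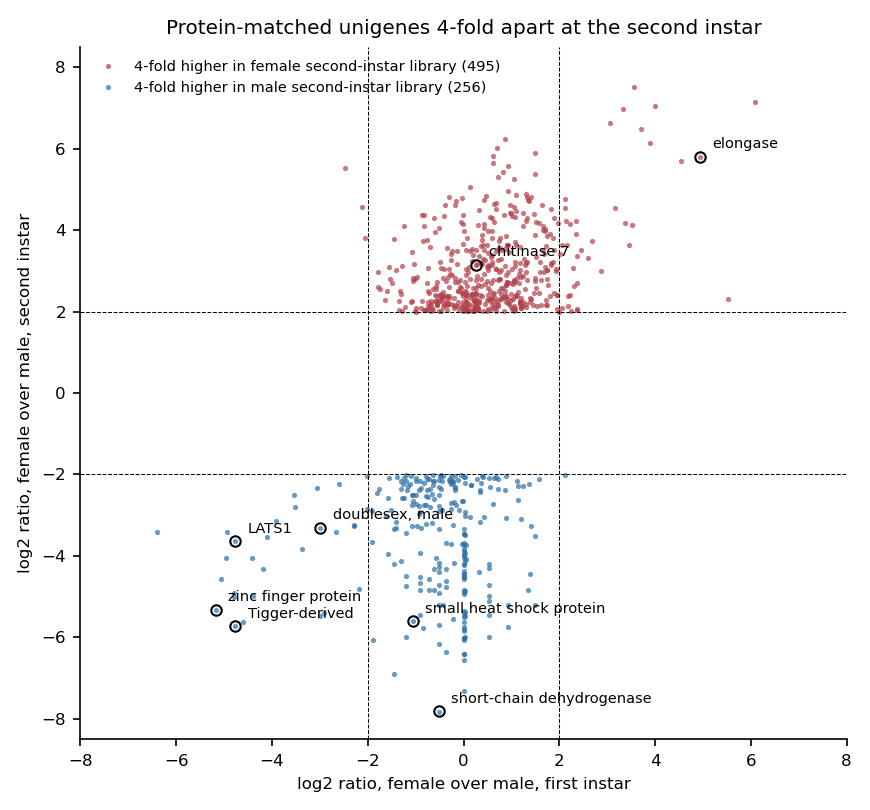
Log2 ratio, female over male (1 CPM added), at the second instar (y axis) against the first instar (x axis), for the 495 female-higher and 256 male-higher unigenes with a protein match at the second instar. Dashed lines mark 4-fold. Points on the vertical line at 0 include unigenes unread in both first-instar libraries. LATS1, a zinc finger protein and the Tigger-derived protein lie 4-fold towards males at both instars, and the small heat shock protein and short-chain dehydrogenase at the second alone.

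Clock genes were noticed after values were seen. Of 6 measured unigenes of the circadian clock 2 were higher in males and 0 in females: CYCLE at 61 against 7 reads (Unigene123931_FOB, 7.66-fold, 3.5 to 19.8) and its partner CLOCK at 44 against 8 (Unigene153047_FOB, 4.83-fold, 2.25 to 11.9). A further Clock match had 61 and 16 reads (Unigene155369_FOB, 3.35-fold, 1.91 to 6.23), short of the rule. CYCLE had 0 to 9 and CLOCK 1 to 10 reads in the other 6 libraries. The labels do not give the hour of collection, and its part in the result was not tested.

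Ribosomal protein unigenes lay towards the female library, and the source of their matches moved with the result. Of 47 measured 14 were higher in females and 0 in males, with a median of 0.96. Among the 32 with an arthropod match 4 were higher, with a median of 0.45. Among the 13 matched best outside the arthropods 8 were higher, with a median of 2.15, such as L30 at 46 and 6 reads (Unigene148568_FOB, 8.72-fold, 3.72 to 25). The 14 had medians of 14.9 CPM in females and 2.06 CPM in males at the second instar, and 11.6 and 3.47 CPM at the first. The most read ribosomal unigene, L37 with an arthropod match, had 893 and 468 reads (Unigene12684_FOB, 2.17-fold, 1.94 to 2.43). Translation factors had 3 of 175 higher in females and 0 in males, 2 of the 3 matched outside the arthropods. Reads on unigenes matched to other animals made up 3.61% of female and 3.75% of male reads, and the part of other organisms in the result was not tested.

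Of the tissue markers, muscle had 0 of 114 measured members higher in females and 1 in males, with summed levels of 5561 and 5382 CPM, and titin had 453 and 408 reads (Unigene153152_FOB, 1.26-fold, 1.10 to 1.45). Synapse and ion channel unigenes had 1 of 76 higher in females and 2 in males, with a median of 0.42. Sperm and axoneme unigenes had 1 of 40 higher in males, and vision had 0 of 15 in either direction. Apart from tissue markers, histones, the proteins that package DNA, had 3 of 10 higher in males and 0 in females, with a median of -1.08.

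No member was higher in either library among 157 measured of cell cycle and replication, 273 of proteasome and ubiquitin, 56 of glycolysis and the tricarboxylic acid cycle, 43 of insulin and TOR signalling, 41 of Wnt, 27 of TGF-beta and BMP, 15 of Notch signalling, 46 of immunity, 28 antioxidant enzymes, 3 glutathione S-transferases and 22 other juvenile hormone proteins. Within glycolysis, hexokinase A, which commits glucose to metabolism, had 546 male and 153 female reads and fell short of the rule (Unigene86346_FOB, 3.14-fold, 2.62 to 3.78). Respiratory chain unigenes had 1 of 32 higher in females and homeobox and patterning factors 2 of 27. Chemosensation had 2 of 9 higher in females and 1 in males, with a median of 1.14. Transposable elements had 1 of 88 higher in females and 3 in males, and zinc finger proteins 4 and 5 of 207.

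Unigenes with no protein match made up 758 of the female-higher and 646 of the male-higher unigenes. The most read of them on the female side had 653 reads and none in males (Unigene49739_FOB, at least 248-fold), with 527 reads in early-stage adult females and 167 in first-instar females. On the male side the most read had 940 and 98 reads (Unigene114523_FOB, 8.43-fold, 6.84 to 10.5), and it had 375 female and 113 male reads at the first instar, short of the 4-fold rule.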

How the data were processed

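RNA sequencing tables of 8 libraries were used, 1 per group, grouped by title. Per the file headers, the authors deposited for each assembled unigene the count of uniquely assigned reads, its RPKM, length and best protein match. The deposited RPKM was recomputed from count, length and header total for every unigene and was used only as a check. No label or file header names the aligner, assembler, filters or strand setting. Counts were joined by identifier, a missing unigene was taken as 0 reads, and CPM was computed on the header total (Python 3.11.15, pandas 2.3.3, scipy 1.17.1). Ratios have exact conditional binomial intervals of 95%. PCR reads are not independent molecules, so intervals and floors cover counting error only. The ratio calculation was tested on simulated data.

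The comparison and the 68 lists, which are word patterns over the match names, were chosen with earlier results of these data known. Of the lists, 7 were added after values were seen. They are the circadian clock, CRAL/TRIO carriers, angiotensin-converting enzymes, thrombospondin-domain proteins, serine proteases other than trypsins, lysosomal and secreted hydrolases, and glucose dehydrogenases. Named were, per list, the 4 members past the rule with the most reads in each direction, or the most abundant member where none passed, the 15 highest and 15 lowest ratios among named unigenes with at least 100 reads, the 10 most read named unigenes per library, and the 2 most read unmatched unigenes per direction. Other unigenes named were chosen after their values were seen. Alternatives were TMM factors (edgeR 4.0.16), DESeq2 1.42.0 size factors, 0.5 or 5 CPM added, 100 reads or 1 read as the minimum, arthropod matches, and unigenes of at least 500 bases. No sequence or genome was used.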

Additional observations from a re-analysis of the deposited data

Results flagged for a closer look

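Across all unigenes, 5 of the female-higher were male-higher at the first instar and 20 of the male-higher were female-higher there. Among those with a named protein match, 3 were opposite in this way. The difference was not tested, as each side has 1 library. A fatty acid synthase match (Unigene128623_FOB) had a log2 ratio, female over male, of 3.81 at the second instar and -2.05 at the first. A p270 unigene (Unigene18901_FOB) had 4.58 and -2.11, while the 3 other p270 unigenes described above were female-higher at both instars. A DEAD box RNA helicase match (Unigene56771_FOB) had -2.0 and 2.13, at 8 female and 43 male reads at the second instar and 45 and 9 at the first.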

How the results depend on the processing

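The counts of 1253 and 902 stayed within 1.5 times under TMM factors (1212 and 905), DESeq2 size factors (1233 and 873) and 0.5 CPM added (1364 and 984). They moved to 479 and 410 with 5 CPM added, 203 and 240 at a minimum of 100 reads, 2423 and 1694 at 1 read, 431 and 224 for arthropod matches, and 429 and 219 for unigenes of at least 500 bases, since the last 2 settings and the 100-read minimum leave fewer unigenes. The female share of these calls was 58.1% as reported and 45.8% at 100 reads. No named unigene changed direction, but these settings could hardly have reversed a 4-fold ratio. Filters leave each ratio as it is, and an added amount cannot change its sign. With 5 CPM added, 36 log2 ratios of the unigenes named by rule moved beyond counting error, or by more than 1 against 0 reads. The other 165 did not. List medians changed sign in 39 cases over 30 lists, 14 at 100 reads, 14 at 1 read, 10 at 500 bases, 1 with arthropod matches and 0 under the other scalings or added amounts. At 100 reads the median of fatty acyl-CoA reductases went from 0.69 to -5.47, lipases from 0.04 to -3.31, desaturases from -0.19 to 1.90, ecdysone response from 0.24 to -1.02, serine proteases other than trypsins from 0.22 to -1.07, transposable elements from 0.16 to -1.37 and cytochromes P450 from 0.38 to -0.14. At 1 read sex determination went from -1.44 to 0.01, the circadian clock from -0.95 to 0.01 and CoA ligases from -0.10 to 0.06, and at 500 bases chemosensation went from 1.14 to -0.91. These settings change which members are measured. No paired analysis was possible because each group held 1 library. A unigene with 20 reads has a wide counting interval, and the spread between insects is unknown.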
